A study of Mus musculus with 6 samples.

Results

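GABA-A receptors are chloride channels built from 5 subunits around a central pore, usually 2 α, 2 β and 1 γ or δ subunit, and the α subunit largely sets where the channel sits and how sensitive it is to GABA. Channels with α2 or α3 and a γ subunit gather mostly at synapses and carry brief (phasic) inhibition, whereas channels with α5, or with α4 and δ, lie mostly outside synapses and carry a steady (tonic) current. In the hippocampus α5 is prominent in pyramidal cells, and α4 with δ in dentate granule cells. The genes described here were 7 subunit genes, *Gabra2*, *Gabra3*, *Gabra4*, *Gabra5*, *Gabrb1*, *Gabrb2* and *Gabrd*, out of 19 annotated GABA-A subunit genes and 55401 genes in the tables. They were chosen by name, and *Gabra5*, *Gabra4* and *Gabrd* were set as the tonic subunits against the other 4. All 7 passed the filter on low counts, as did 6 of the other 12 subunit genes and 19969 genes in all.

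RNA of the dorsal hippocampus was sequenced from male wild-type (WT) mice, of which 3 had received Control-ASO and 3 Snhg11-ASO. An antisense oligonucleotide (ASO) of this kind is a gapmer that pairs with an RNA and leads to its cleavage by RNase H. Snhg11-ASO targets the long non-coding RNA *Snhg11*, and Control-ASO is a scrambled gapmer of the same length. The mice were WT littermates of the Ts65Dn line, 4 months old, given 50 µg of ASO into the dorsal dentate gyrus (DG) of each hemisphere and dissected 3 days later. All 6 mice were therefore injected, and no uninjected group was analysed here. The dissected tissue was wider than the injected DG, so every value is a mean over several hippocampal fields and cell types, in which fewer cells of a type and less RNA per cell cannot be told apart.

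The libraries held 28951250 to 43997537 counts on genes, with 96.2% to 96.8% of stranded counts on the expected strand. Levels are given as CPM, the counts scaled to each library's total with TMM factors, in the order of replicates 1, 2 and 3. *Snhg11* itself had 551, 436 and 209 CPM under Control-ASO, against 139, 65.4 and 69.4 CPM under Snhg11-ASO. The groups did not overlap, and the adjusted p was 0.395 in edgeR and 3.9e-05 in DESeq2. Among Snhg11-ASO libraries, replicate 1 stood apart from the others: its Spearman correlation over genes was 0.960 with replicate 2 and 0.958 with replicate 3, against 0.991 between replicates 2 and 3. Values of the members that change by over 1.5 times or turn their sign without it are given both ways.

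No GABA-A subunit gene passed the threshold in Snhg11-ASO against Control-ASO. All 7 members had a fitted level below that of Control-ASO, with log2 fold changes from -0.80 for *Gabra3* to -0.04 for *Gabra5* and a median of -0.15, where the median over all tested genes was 0.01 and 48.3% of them were lower. In edgeR's quasi-likelihood test the members past the threshold (adjusted p of 0.05) numbered 0, against 0% of all tested genes, and in DESeq2 also 0, against 1.31%. At an unadjusted p under 0.05 there were 2 members, *Gabra3* and *Gabrb2*, against 8.11% of all tested genes. In *Gabrb1* and *Gabrb2* every Snhg11-ASO sample lay below every Control-ASO sample, against 7.7% of all tested genes, and in 0 members every Snhg11-ASO sample lay above, against 7.73%. Without Snhg11-ASO replicate 1 the number of members below Control-ASO was 4 (*Gabra3*, *Gabrb1*, *Gabrb2* and *Gabrd*).

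**Figure D1:**
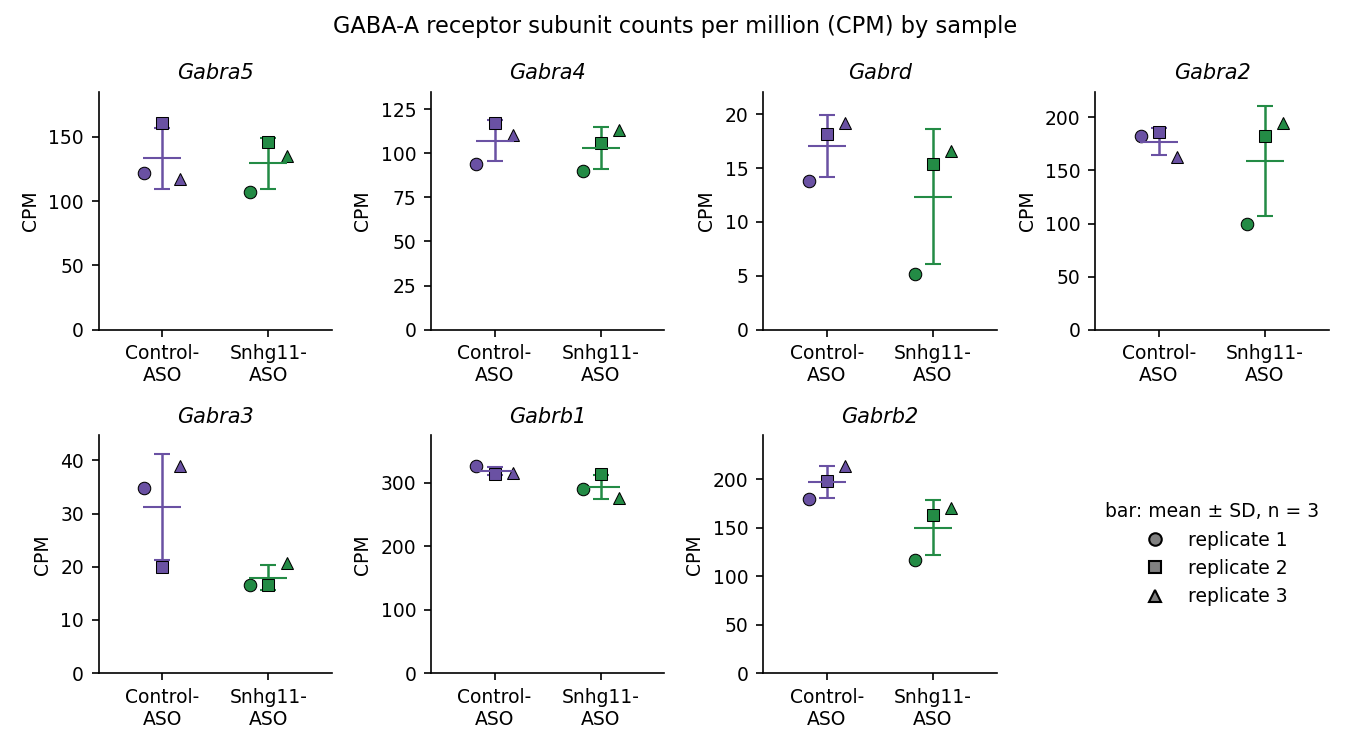
CPM (y axis, each panel from 0) of the 7 subunit genes in each sample, with Control-ASO in purple, Snhg11-ASO in green, and bars for the mean ± SD of 3 mice. Snhg11-ASO replicate 1 (green circle) is the lowest sample for all genes except *Gabrb1*, and the groups are separate for *Gabrb1* and *Gabrb2* only.

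The subunit genes lie in clusters, and the members fall into 5 places in the genome (GRCm38, mm10, GENCODE M21). *Gabra2* (minus strand, 70957597 to 71095849), *Gabra4* (minus, 71569749 to 71658308) and *Gabrb1* (plus, 71658113 to 72149037) share a cluster on chromosome 5 with *Gabrg1*. *Gabra5* (chromosome 7, minus, 57407672 to 57510059) lies in a cluster with *Gabrg3*, and *Gabrb2* (chromosome 11, plus, 42419757 to 42629028) in a cluster with *Gabra6*. *Gabra3* (minus, 72432681 to 72656848) lies on chromosome X between *Gabre* and *Gabrq*, and *Gabrd* (chromosome 4, minus, 155384980 to 155398112) lies away from the other subunit genes of its chromosome, *Gabrr1* and *Gabrr2*. *Gabra4* and *Gabrb1* point away from each other, and their annotated spans share 196 bases, 46 of them exonic in both. The counts used here keep the strands apart, so the pair is counted separately.

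To show what lies before a RefSeq start of the members with the smallest p, and of 1 whose groups overlapped widely, the sequences of *Gabra3*, *Gabrb2* and *Gabra4* are printed 5′ to 3′ on the gene's own strand, as RefSeq gives them on GRCm38.p6. Of the 250 bases before the RefSeq start, those inside an annotated exon were left out. Capitals mark a TATA box (TATAAA) or a GC box (GGGCGG), read on either strand.
Gabra3: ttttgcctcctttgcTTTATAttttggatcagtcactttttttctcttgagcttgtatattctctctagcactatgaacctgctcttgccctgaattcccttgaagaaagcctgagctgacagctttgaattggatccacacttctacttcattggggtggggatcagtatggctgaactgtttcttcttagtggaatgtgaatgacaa
Gabrb2: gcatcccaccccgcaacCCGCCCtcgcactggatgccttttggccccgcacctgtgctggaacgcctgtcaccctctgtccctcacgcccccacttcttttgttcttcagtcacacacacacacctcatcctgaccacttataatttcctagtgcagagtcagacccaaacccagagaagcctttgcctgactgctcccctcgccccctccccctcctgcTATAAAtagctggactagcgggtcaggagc
Gabra4: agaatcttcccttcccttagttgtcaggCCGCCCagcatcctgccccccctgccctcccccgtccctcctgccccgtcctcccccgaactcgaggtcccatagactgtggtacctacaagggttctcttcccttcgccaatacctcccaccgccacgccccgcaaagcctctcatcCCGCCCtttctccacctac
The 209 bases of *Gabra3* lie at chrX:72656849-72657057, the 250 of *Gabrb2* at chr11:42420190-42420439 and the 195 of *Gabra4* at chr5:71658364-71658558. The *Gabrb2* stretch lies inside an intron of the gene as GENCODE annotates it, 433 to 682 bases after the annotated start, because RefSeq places the start further in. The *Gabra3* sequence held no CpG, while the full 250 bases before the start held 18 CpG in *Gabra2* and *Gabrb1*, 12 in *Gabra4*, 9 in *Gabra5* and 8 in *Gabrb2*, against a median of 6 over 32851 RefSeq windows, of which 7.87% had none. GC content was 39.2% for *Gabra3* and 56.4% to 70.0% for the other members matched, with a median of 52.4% over all windows. The TATAAA sequence was found in *Gabra3* and *Gabrb2* and in 12.4% of all windows. In *Gabrb2* it reads on the gene's strand close to the RefSeq start. In *Gabra3* it reads on the other strand (TTTATA), at the end of the window far from the start, so the match there is of sequence only. A GC box was found in *Gabra2*, *Gabra4* and *Gabrb2* and in 32.7% of all windows. The cyclic AMP response element TGACGTCA, present in 1.55% of windows, and the EGR motif GCGTGGGCG, present in 0.536%, were in none of the 6 members matched. These are descriptions of sequence in 1 window per gene, on both strands, and RefSeq gives further starts for *Gabra3*, *Gabrb1* and *Gabrb2*.

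*Gabra5*, *Gabra4* and *Gabrd*, the tonic subunits, did not pass the test. *Gabra5*, which encodes the α5 subunit of extrasynaptic receptors on pyramidal cells, was counted at 122, 161 and 117 CPM in the Control-ASO replicates, and the Snhg11-ASO replicates had 107, 146 and 136 CPM. The groups overlapped, with replicate 2 the highest in each. The mean was 133 ± 23.8 CPM (SD, n = 3) in Control-ASO and 129 ± 20.1 CPM (SD, n = 3) in Snhg11-ASO, and the log2 fold change was -0.04 with a 95% interval from -0.44 to 0.35 (edgeR, adjusted p = 0.958). Its sign turned when Snhg11-ASO replicate 1 was left out (0.08) and when Control-ASO replicate 2 was (0.11).

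*Gabra4*, which encodes the α4 subunit that pairs with δ in granule cells, was counted at 94.1, 117 and 110 CPM in the Control-ASO replicates. The Snhg11-ASO replicates had 89.7, 106 and 113 CPM of *Gabra4*, inside nearly the same range. The difference was -0.06 on the log2 scale (standard error 0.12, 95% interval -0.35 to 0.24, edgeR adjusted p = 0.918), and it was 0.03 when Snhg11-ASO replicate 1 was left out and 0.01 when Control-ASO replicate 2 was. For *Gabra5* and *Gabra4* the difference between the groups was smaller than the SD within either of them.

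*Gabrd*, which encodes the δ subunit that gives extrasynaptic receptors their sensitivity to neurosteroids, was the least abundant member, at 13.8, 18.2 and 19.2 CPM in the Control-ASO replicates. In the Snhg11-ASO replicates it had 5.17, 15.3 and 16.6 CPM, from 197, 641 and 723 counts. Only replicate 1 lay below the control samples, and replicates 2 and 3 lay within the control range. The log2 fold change was -0.46 (standard error 0.41, 95% interval -1.43 to 0.50, edgeR adjusted p = 0.787), and -0.10 without that replicate. In the same library, markers of astrocytes, oligodendrocytes and microglia had median deviations of -0.79, -0.80 and -1.30 on the log2 scale from the mean of all samples. Their summed level was below the Control-ASO range for astrocytes (4222 against 4825 to 7106 CPM) and microglia (213 against 307 to 604 CPM). For oligodendrocytes it lay inside that range (1708 against 1669 to 2974 CPM). Granule cell markers had a median deviation of -0.18 in this library, and their summed level was above the Control-ASO range (958 against 788 to 908 CPM). The part of any of these cell types in the *Gabrd* value was not tested.

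Of the synaptic α subunits among the members, *Gabra2* lay below the Control-ASO mean in 1 Snhg11-ASO sample and *Gabra3* in all 3. *Gabra2* encodes α2, which is found at synapses on pyramidal cells and at the axon initial segment. It was counted at 182, 186 and 162 CPM in the Control-ASO replicates and at 99.9, 182 and 195 CPM in the Snhg11-ASO replicates. Only Snhg11-ASO replicate 1 lay outside the control range on the low side, and the highest value of all also came from a Snhg11-ASO sample. The log2 fold change of *Gabra2* was -0.15 (standard error 0.24, 95% interval -0.72 to 0.41, edgeR adjusted p = 0.884) and turned to 0.09 without that replicate.

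*Gabra3* encodes α3, a synaptic subunit more prominent in neocortex and in brainstem nuclei than in the hippocampus. It was counted at 34.8, 19.9 and 38.9 CPM in the Control-ASO replicates and at 16.6, 16.6 and 20.7 CPM in the Snhg11-ASO replicates. The Snhg11-ASO samples lay close together, and Control-ASO replicate 2 lay among them, so the groups overlapped by that sample. The mean of Snhg11-ASO was 57.6% of that of Control-ASO, with a log2 fold change of -0.80 (standard error 0.25, 95% interval -1.39 to -0.20). This gave an unadjusted p of 0.0161 and an adjusted p of 0.535 in edgeR, and an adjusted p of 0.135 in DESeq2. A two-sided exact permutation test on the log2 CPM of the 6 samples gave p = 0.2, where 0.1 is the smallest p this number of mice allows. On the log2 scale the difference was -1.04 without Control-ASO replicate 2 and -0.61 without Control-ASO replicate 3, and -0.74 without Snhg11-ASO replicate 1.

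Of 9 neocortex markers, 8 were lower in Snhg11-ASO, with a median log2 fold change of -0.62. None was called, and 1 had an unadjusted p under 0.05 (edgeR), a share near the 8.11% of all tested genes. Their summed level was 254 to 326 CPM in Control-ASO and 217 to 244 CPM in Snhg11-ASO, and no marker was at 0 in any sample. Control-ASO replicate 2, which had the lowest *Gabra3* of its group, also had the lowest summed neocortex level of its group, and Control-ASO replicate 3 had the highest of both. In Snhg11-ASO the orders differed, since replicate 1 had the highest neocortex level (244 CPM) and the lowest *Gabra3*, and replicate 3 the highest *Gabra3* at a neocortex level of 227 CPM. Whether tissue from outside the hippocampus had a part in the *Gabra3* difference was not tested.

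Of the β subunits, *Gabrb2* had the larger difference between the groups. *Gabrb2* encodes β2, a common β subunit of synaptic receptors. It was counted at 180, 199 and 213 CPM in the Control-ASO replicates and at 117, 164 and 170 CPM in the Snhg11-ASO replicates. Every Snhg11-ASO sample lay below every Control-ASO sample (p = 0.1 in a two-sided exact permutation test, the smallest possible). The mean went from 197 ± 16.7 CPM (SD, n = 3) to 150 ± 28.8 CPM (SD, n = 3), or 76.2% of Control-ASO. The log2 fold change was -0.39 (standard error 0.16, 95% interval -0.76 to -0.02), with an unadjusted p of 0.0400 and an adjusted p of 0.592 in edgeR. Without Snhg11-ASO replicate 1 it was -0.24, a change of over 1.5 times.

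*Gabrb1*, which encodes β1, had the highest CPM of the members and varied least. It was counted at 326, 314 and 315 CPM in the Control-ASO replicates and at 291, 314 and 277 CPM in the Snhg11-ASO replicates. The groups were separate by a margin of less than 1 CPM, from 313.9 in Snhg11-ASO replicate 2 to 314.2 in Control-ASO replicate 2. The log2 fold change was -0.12 (standard error 0.09, 95% interval -0.32 to 0.09, edgeR adjusted p = 0.762). *Gabrb1* spans 491 kb, and when each sample's trend of counts with genomic span was removed, its log2 fold change became 0.12, while that of *Gabrb2* was -0.29.

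**Figure D2:**
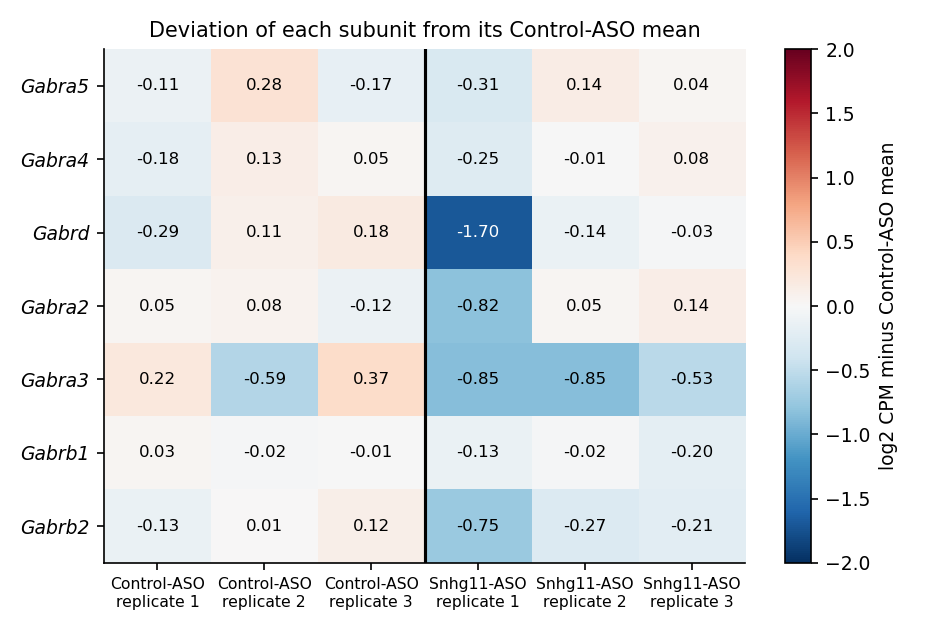
Log2 CPM of each subunit gene (rows) in each sample (columns) minus the gene's Control-ASO mean, with blue for lower and red for higher. The lowest cell is *Gabrd* in Snhg11-ASO replicate 1 at -1.70, and of the 7 genes only *Gabra3*, *Gabrb1*, *Gabrb2* and *Gabrd* are below 0 in all 3 Snhg11-ASO samples.

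**Figure D3:**
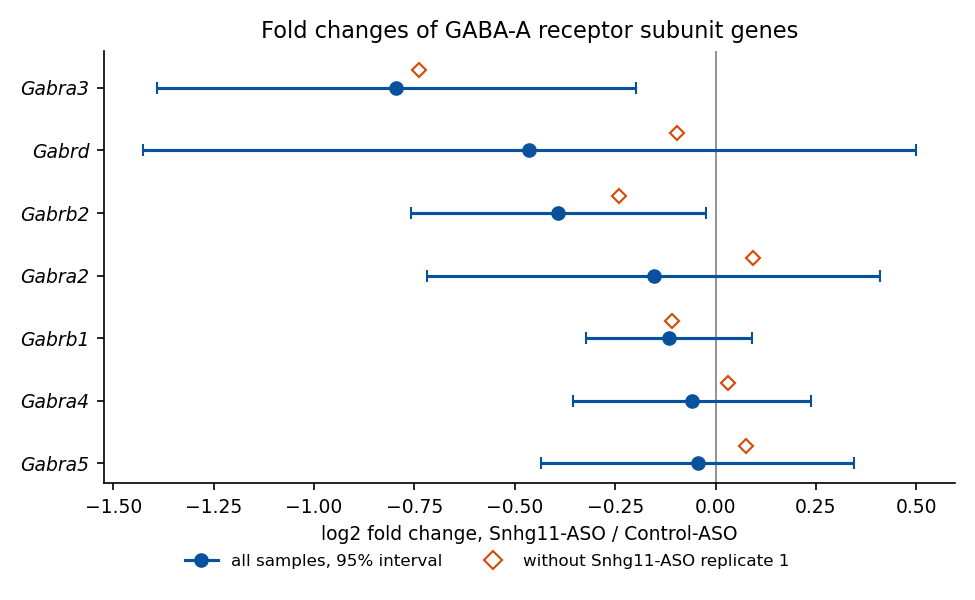
Log2 fold changes of Snhg11-ASO against Control-ASO (x axis) for the 7 subunit genes, with 95% intervals from edgeR and open diamonds for the values without Snhg11-ASO replicate 1. The intervals of *Gabra3* and *Gabrb2* leave out 0 before adjustment over all genes, and the diamonds of *Gabra2*, *Gabra4* and *Gabra5* lie above 0.

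To ask whether tonic and synaptic subunits differed in their response, the mean log2 CPM of *Gabra5*, *Gabra4* and *Gabrd* was set against that of *Gabra2*, *Gabra3*, *Gabrb1* and *Gabrb2* in each sample. The tonic mean was 5.76, 6.13 and 5.98 in the Control-ASO replicates and 5.204, 5.95 and 5.99 in the Snhg11-ASO replicates. The synaptic mean was 7.12, 6.95 and 7.17 in the Control-ASO replicates and 6.44, 6.80 and 6.88 in the Snhg11-ASO replicates. The synaptic means were separate between the groups by a narrow margin, from 6.88 to 6.95, and the tonic means overlapped. With *Gabra2* and *Gabra3* alone, the synaptic means overlapped as well. They were 6.32, 5.93 and 6.31 in the Control-ASO replicates and 5.35, 5.785 and 5.99 in the Snhg11-ASO replicates. On average the tonic mean was lower by 0.24 and the synaptic mean by 0.37 in Snhg11-ASO, both on the log2 scale. Without Snhg11-ASO replicate 1 the tonic mean was higher by 0.01 and the synaptic mean lower by 0.24.

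The difference between the classes was within the spread of the samples. The tonic minus synaptic value was -1.36, -0.82 and -1.19 in the Control-ASO replicates and -1.24, -0.85 and -0.89 in the Snhg11-ASO replicates, with means of -1.12 ± 0.28 (SD, n = 3) and -0.99 ± 0.21 (SD, n = 3). The groups overlapped, and the difference of their means was 0.13 on the log2 scale, or 0.25 without Snhg11-ASO replicate 1. With the α subunits alone, *Gabra5* and *Gabra4* with *Gabrd* against *Gabra2* and *Gabra3*, the means were -0.23 ± 0.39 (SD, n = 3) and 0.01 ± 0.16 (SD, n = 3). β subunits assemble into channels of both kinds, so the assignment of *Gabrb1* and *Gabrb2* to the synaptic class is a simplification. Set against *Gabra2*, the change was -0.41 for *Gabrd*, 0.17 for *Gabra5* and 0.15 for *Gabra4* on the log2 scale, and without Snhg11-ASO replicate 1 it was -0.18, 0.00 and -0.06, none of which was tested.

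**Figure D4:**
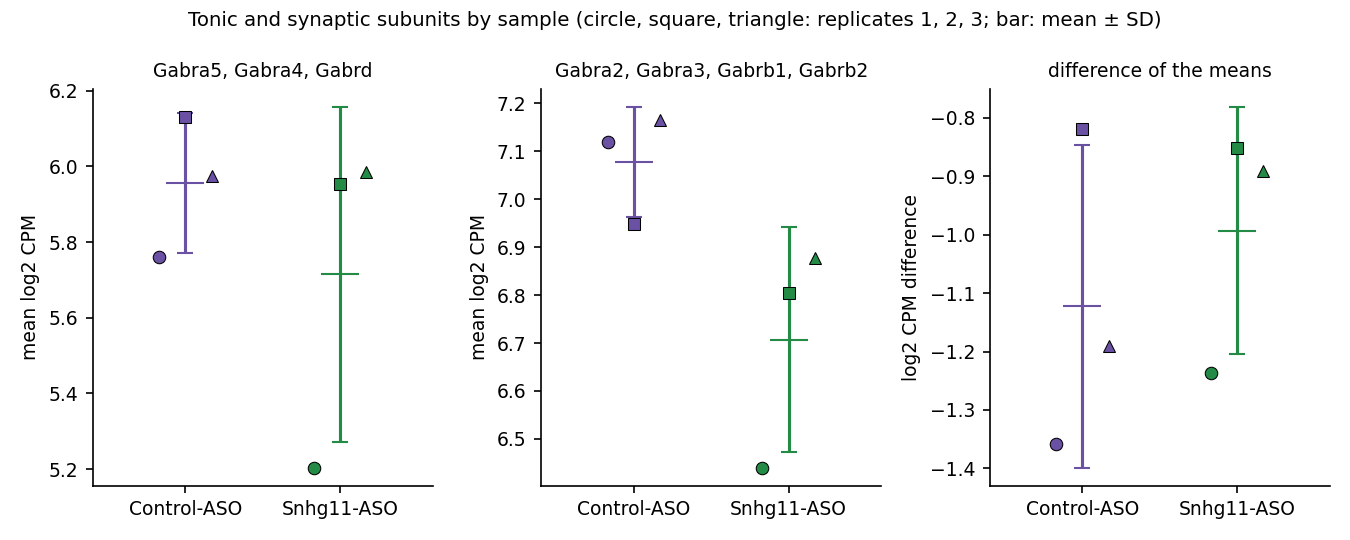
Mean log2 CPM of the tonic subunits (left), of the synaptic subunits (middle) and their difference (right) in each sample, with bars for the mean ± SD of 3 mice and axes that do not start at 0. The synaptic means, which include the β subunits, are narrowly separate between the groups, while the tonic means and the differences overlap.

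Levels of different genes can be set side by side only per length, here as CPM per kb of merged exonic length. In Control-ASO the order of the members from high to low was *Gabra5* (44.9 ± 7.99, SD, n = 3), *Gabrb2* (31.0 ± 2.63), *Gabra2* (23.2 ± 1.68), *Gabrb1* (23.01 ± 0.47), *Gabra4* (17.6 ± 1.93), *Gabra3* (7.95 ± 2.54) and *Gabrd* (5.93 ± 0.99). The ranges of neighbours in this order overlapped in Control-ASO for *Gabra2* with *Gabrb1* and for *Gabra3* with *Gabrd*. The ranges did not overlap for *Gabra5* with *Gabrb2*, *Gabrb2* with *Gabra2*, *Gabrb1* with *Gabra4* and *Gabra4* with *Gabra3*. *Gabrb1*, first among the members in CPM, thus came after *Gabra5*, *Gabrb2* and *Gabra2* per kb, since its merged exons hold 13838 bases, against 2974 for *Gabra5*.

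The α subunits give the makeup of the receptor RNA. Per kb, *Gabra5* made up 33.1%, 37.5% and 28.7% of the α subunit RNA in the Control-ASO replicates and 38.4%, 38.1% and 34.2% in the Snhg11-ASO replicates, the largest share among the members. *Gabra3* made up 7.16%, 3.52% and 7.20% in the Control-ASO replicates and 4.51%, 3.29% and 3.96% in the Snhg11-ASO replicates. *Gabra2* averaged 17.2% in both groups, and *Gabra4* 13.0% in Control-ASO against 14.4% in Snhg11-ASO. The shares of *Gabra2*, *Gabra3* and *Gabra5* overlapped between the groups. The *Gabra4* share was higher in all 3 Snhg11-ASO samples (13.55% to 15.8%) than in all 3 Control-ASO samples (12.5% to 13.36%), by a narrow margin. A share also depends on the levels of the other α subunits, and the level of *Gabra4* itself overlapped between the groups.

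**Figure D5:**
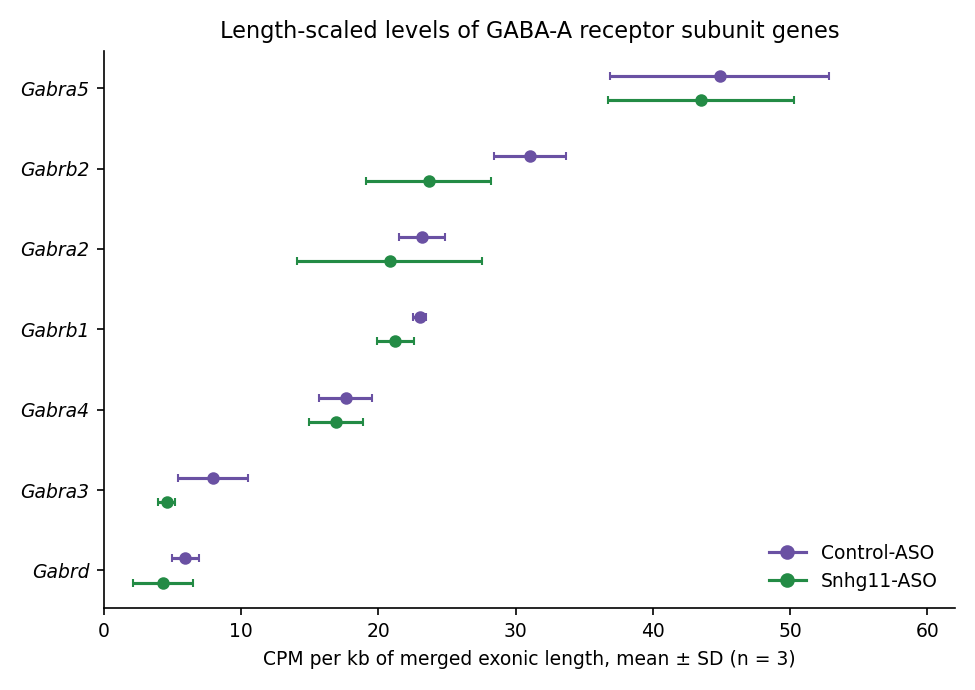
CPM per kb of merged exonic length (x axis, from 0) of the 7 subunit genes, as mean ± SD of 3 mice, with Control-ASO in purple and Snhg11-ASO in green. *Gabra5* is at the top in both groups, and *Gabra3* and *Gabrd* lie below the other members.

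The 6 other tested subunit genes had 0 calls, and 5 of them were lower in Snhg11-ASO. *Gabrg3*, which encodes γ3 and neighbours *Gabra5*, was counted at 33.9, 31.9 and 29.2 CPM in the Control-ASO replicates and at 25.0, 24.4 and 20.8 CPM in the Snhg11-ASO replicates. The groups were separate. The difference was -0.43 on the log2 scale with a standard error of 0.12, an unadjusted p of 0.00830 and an adjusted p of 0.497 in edgeR's test. *Gabrg3* spans 671 kb, more than *Gabrb1*, and its difference was not examined after the correction for genomic span. *Gabrg1* had a log2 fold change of -0.42 and *Gabrr2* of 0.74, at 0.44 to 1.44 CPM, and the groups overlapped in both. The ratio of the mean CPM without Snhg11-ASO replicate 1 was -0.13 for *Gabrg1* and 0.28 for *Gabrr2* on the log2 scale. *Gabrq*, which encodes θ and neighbours *Gabra3*, did not pass the filter and had 51, 8 and 22 counts in the Control-ASO replicates and 4, 7 and 9 in the Snhg11-ASO replicates. The other 5 (*Gabra6*, *Gabre*, *Gabrp*, *Gabrr1* and *Gabrr3*) had at most 14 counts in any sample.

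The members did not all vary together, with a Pearson r over the 6 samples from -0.31 (*Gabra3* with *Gabra5*) to 0.94 (*Gabrb2* with *Gabrd*). Over the 6 samples their mean log2 CPM, each gene centred, was 0.10, 0.16 and 0.22 in the Control-ASO replicates and -0.53, 0.00 and 0.06 in the Snhg11-ASO replicates. The tested genes most like it were *Phka1* (Pearson r = 0.998), *Zfp606* (0.997), *Mpi* (0.996), *Grm3* (0.996) and *Dusp22* (0.995), over 6 samples that share their libraries and in which Snhg11-ASO replicate 1 lies far from the rest. A value above 0.9 was found for 7.46% of all tested genes.

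Among the genes that place, make and clear GABA signals, none passed the threshold in edgeR. Of 24 tested genes for anchoring and trafficking of GABA-A receptors, 6 were lower, against 48.3% of all tested genes, and 18 higher. The median log2 fold change was 0.05, and 1 gene had an unadjusted p under 0.05 in edgeR, against 8.11% of all tested genes. That gene was *Dmd*, which encodes dystrophin, a part of the complex at inhibitory synapses. It was counted at 198, 227 and 194 CPM in the Control-ASO replicates and at 93.6, 138 and 126 CPM in the Snhg11-ASO replicates, with separate groups. In 1 gene of the list every Snhg11-ASO sample lay below every Control-ASO sample, against 7.7% of all tested genes. In 1 gene every Snhg11-ASO sample lay above, against 7.73%. For *Dmd* the difference was -0.79 on the log2 scale with a standard error of 0.16. The adjusted p was 0.377 in edgeR and 0.00750 in DESeq2, so that the call depended on the tool. In DESeq2 1 gene of the list was called, against 1.31% of all tested genes.

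Of 11 genes of GABA synthesis, release and uptake 10 were lower, against 48.3% of all tested genes, and 3 had an unadjusted p under 0.05, against 8.11%, with a median log2 fold change of -0.26. In 4 of them every Snhg11-ASO sample lay below every Control-ASO sample, against 7.7% of all tested genes, and 0 were called. *Abat*, which encodes GABA transaminase, had -0.36 and *Aldh5a1*, which acts after *Abat* in GABA breakdown, had -0.28, with an adjusted p of 0.522 and 0.609 in edgeR. The groups did not overlap in either. Of 6 genes for GABA-B receptors, the metabotropic receptors for GABA, 5 were lower, with *Gabbr2*, a receptor subunit, at -0.30 and *Kctd8*, an auxiliary subunit, at -0.54 (edgeR adjusted p = 0.571 and 0.561). Of 8 genes for chloride transport 5 were lower, with the channel gene *Clcn2* at -0.27 (edgeR adjusted p = 0.591). All 3 tested glycine receptor genes were lower, with the smallest p for *Glrb*, the β subunit, at -0.31 (edgeR adjusted p = 0.680). The groups overlapped in *Glrb*. The counts of lower genes in these short lists stand against 48.3% of all tested genes.

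Interneuron markers were lower beside these lists. Of 13 tested interneuron markers 11 were lower, against 48.3% of all tested genes, and 5 had an unadjusted p under 0.05, against 8.11%, with a median log2 fold change of -0.26. Of these markers 0 were called in edgeR, against 0% of all tested genes, and 1 in DESeq2, against 1.31%. In 5 of them every Snhg11-ASO sample lay below every Control-ASO sample, against 7.7% of all tested genes. Their summed level was 483, 417 and 440 CPM in the Control-ASO replicates and 286, 306 and 357 CPM in the Snhg11-ASO replicates, without overlap. *Erbb4* (140, 110 and 126 against 60.8, 78.9 and 73.8 CPM) and *Reln* (162, 121 and 139 against 90.5, 91.2 and 108 CPM) weigh most in this sum. The separate sums are therefore not a result for every marker. The part of interneurons in the levels of the subunits and of the GABA genes was not tested.

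Dentate granule cell markers, the defining markers of the injected field, had a median log2 fold change of -0.01 over 14 genes, CA1 markers 0.01 over 7, and CA2 and CA3 markers 0.06 over 8. The medians were 0.24 for 9 thalamus, -0.02 for 9 astrocyte, 0.06 for 9 microglia, 0.17 for 10 oligodendrocyte and 0.03 for 8 endothelial markers. Of the thalamus markers 6 were higher and 3 lower. Their sums were narrowly separate, at 81.7 to 105.8 CPM in Control-ASO and 106.1 to 110.1 CPM in Snhg11-ASO. In 2 of them every Snhg11-ASO sample lay above every Control-ASO sample, against 7.73% of all tested genes. In edgeR 0 were called, against 0%, and in DESeq2 1, against 1.31%. Choroid plexus markers summed to 36.6 to 1907 CPM in Control-ASO and to 68.5 to 1303 CPM in Snhg11-ASO, with a median log2 fold change of -0.93 over 8 genes. None of the 104 tested marker genes was at 0 in any sample.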

How the data were processed

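Per the labels, the authors mapped reads to mm10 with STAR 2.5.2a. The deposited counts are raw read pairs per gene, on both strands and on each. The methods of the study name Rsubread, but the counts have STAR's layout, which omits pairs on exons of more than 1 gene. Summary lines that name no gene (43.5% to 51.4% of pairs) were dropped, and reverse-strand counts were used. Gene models came from GENCODE M21 (55141 of 55401 identifiers matched). Genes were filtered with filterByExpr (minimum count 10), scaled with TMM and tested with edgeR 4.0.16 (R 4.3.3), quasi-likelihood, with Benjamini-Hochberg adjustment over all tested genes. The standard error is the size of the log2 fold change over the square root of F. Log2 CPM had a prior count of 2. DESeq2 1.42.0, other scalings and filters, counts of both strands, a loess correction for genomic span, the replicate block and leaving out each sample were alternatives. The methods were tested on simulated data.

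No label ties a replicate number to a day or litter. The deviations of samples of the same number from their groups correlated weakly (r = 0.297, 0.179 and 0.1035), each above 0.1, and they were taken as pairs in the block. Samples of different numbers were not compared in this way, so the values cannot show that the numbers mark pairs. The p-values of edgeR and DESeq2 set the difference between the groups against the spread between samples of the same group. In that spread, differences between mice, dissections and libraries cannot be told apart.

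The members, the gene lists (written by hand: receptor anchoring, GABA-B, GABA synthesis, chloride transport, glycine receptors, cell type markers) and the tests were chosen with earlier results of these data known. Named genes are the members, other tested subunits, *Snhg11*, up to 4 genes per pathway list at an unadjusted p under 0.05 (or the one with the smallest p), and the 5 genes most like the members' mean. Untested subunits, *Erbb4* and *Reln* were named after their values were seen. In the lists 2 symbols had no match and were left out. The study removed 1 Snhg11-ASO sample without naming it, and all were kept here. Some genes that the rule names are not reported here by name, although they enter the counts.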

Additional observations from a re-analysis of the deposited data

Results flagged for a closer look

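Counts on the strand opposite to a gene were not used in any comparison. On *Gabrb1* they came to 3.96 CPM (151 counts) in Snhg11-ASO replicate 1, above the 1.87 to 2.08 CPM of the Control-ASO samples, whose 95% Poisson intervals reached at most 2.63 CPM. On *Gabrq* they came to 1.73 CPM (66 counts) in Snhg11-ASO replicate 1, against 0 to 2 counts in each Control-ASO sample and 1 and 0 counts in Snhg11-ASO replicates 2 and 3. The other Snhg11-ASO replicates had 1.63 and 1.67 CPM opposite to *Gabrb1*, below the Control-ASO samples. These intervals cover counting error only, and the signals come from 1 library, with no replicate.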

How the results depend on the processing

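The number of members called was 0 under all 18 alternatives, and *Gabra3*, *Gabrb2* and *Gabrd* kept their direction in all of them, with log2 fold changes of -1.04 to -0.61, -0.49 to -0.24 and -0.73 to -0.10. The number of all genes called was 250 in DESeq2, and 346, 265 and 209 in DESeq2 without Snhg11-ASO replicate 1, 2 or 3, where the cause was not tested, and it was 0 to 2 in edgeR with 1 sample left out. With 1 sample left out, *Gabra2* ranged from -0.327 to 0.0926 (*Gabra4* from -0.151 to 0.0318, *Gabra5* from -0.14 to 0.111), where the positive values came without Snhg11-ASO replicate 1 (0.0926, 0.0318 and 0.0759) or, for *Gabra4* and *Gabra5*, without Control-ASO replicate 2 (0.00984 and 0.111). In DESeq2 without Snhg11-ASO replicate 1 they were 0.0904, 0.0293 and 0.0738. *Gabrb1* turned to 0.1228 after the correction for genomic span, and to 0.1229 with the replicate block added. *Snhg11* was called in DESeq2 (-2.13), also without Snhg11-ASO replicate 1 (-2.56), 2 (-1.94) or 3 (-1.97). With the replicate block the counts of members and of genes called stayed at 0, and it changed no other call. The tonic minus synaptic difference ranged over 11 alternatives from -0.01, after the correction for genomic span, to 0.28, without Control-ASO replicate 2. Without Control-ASO replicate 1 it was 0.01. All lay within 1 SD of the 0.13 reported, but that SD between samples (0.25) was larger than the difference itself. Counts of members with an unadjusted p under 0.05 ranged from 0 (without Control-ASO replicate 3) to 2 and were, like the count of members lower, added after the data were seen. With 3 mice per group, the 95% interval of *Gabrd* ran from -1.43 to 0.50 on the log2 scale, and its standard error was 0.41, or 0.16 without Snhg11-ASO replicate 1.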
